A study of Homo sapiens with 6 samples.

Results

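AZGP1, PRAP1, RASGRP2, PPP1R14D, CAMK2N1, MYRF, KLC4, FAM131B and AP001372.3 are 9 genes of the 60694 rows in the deposited table, and each stood on a row of its own. They were chosen by their FPKM values in this same comparison, for large and consistent rises in the overexpression libraries, and the choice states no threshold. Their rises, ranks and calls are therefore given as a description, without a p-value. The assay was paired-end RNA-seq of SW480, a line of human colorectal cancer cells, with 3 control libraries and 3 libraries overexpressing HNF4A. The control carries the genotype label control and titles with the word lenti. The overexpression group has the genotype label overexpressing HNF4a and titles with lenti-HNF4a. Both were grown in RPMI1640 medium with serum and antibiotics, and the labels call the replicates biological. Not given in the sources used here were the vector, its promoter, the time after transduction, and whether the cells were a pool or a clone.

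HNF4A is a nuclear receptor of liver, kidney, pancreas and intestinal epithelium. It binds DNA as a homodimer at direct repeats of sequences like AGGTCA, and in the gut it is known for holding enterocytes in their differentiated state. The 9 genes do not form a pathway. AZGP1 and PRAP1 encode secreted proteins. RASGRP2, PPP1R14D and CAMK2N1 encode regulators of calcium, small GTPase and phosphatase signalling. MYRF encodes a membrane-anchored transcription factor and KLC4 a subunit of a microtubule motor. FAM131B is known mainly as a fusion partner of BRAF in pilocytic astrocytoma, and AP001372.3 is a noncoding RNA gene named after a genomic clone.

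Values are FPKM, fragments scaled to transcript length and to mapped fragments, so the read depth behind them is unknown. The library sums ran from 615594 to 652879 FPKM. HNF4A itself was listed at 8.81, 6.57 and 7.47 FPKM in control replicates 1 to 3 and at 1143, 720.6 and 852 FPKM in overexpression replicates 1 to 3, so every library matched its label. EPCAM, which marks epithelial cells, lay between 173 and 182 FPKM in all 6 libraries, and the keratin genes KRT8 and KRT18 lay at or above 1901 FPKM. The epithelial list was not level between the groups: VIL1, which encodes the microvillus protein villin, rose from 12.1 ± 2.46 to 32.3 ± 4.36 FPKM (SD, n = 3 each; limma adjusted p = 0.00182), and the cadherin gene CDH1 from 12.0 ± 0.939 to 17.7 ± 0.554 FPKM (0.00522). The other 5 tested genes of that list did not pass. KRT18, KRT19 and KRT8 had log2 changes of -0.24, -0.19 and -0.10 (limma adjusted p of 0.0956, 0.140 and 0.544). CDX2 and EPCAM had log2 changes of 0.41 and 0.03 (0.110 and 0.738). KRT20, a keratin of differentiated colonocytes, did not exceed 0.126 FPKM. The summed level of 5 leukocyte markers was 1.14 to 1.66 FPKM in control and 1.75 to 2.6 FPKM in overexpression, with PTPRC at or below 0.086 FPKM. The corresponding sums were 2.18 to 2.75 and 3.43 to 3.49 FPKM for 4 fibroblast markers, most of it COL1A1, and 0.184 to 0.239 and 0.258 to 0.411 FPKM for 3 endothelial markers, with CDH5 at 0 in all 6 libraries. For 4 hepatocyte markers they were 0.0668 to 0.29 and 0.0608 to 0.327 FPKM. The part of these marker shifts in the rises below was not tested. In bulk RNA, more RNA per cell and more cells that express a gene cannot be told apart.

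Upstream sequence was in the reference for AZGP1, RASGRP2, PPP1R14D and FAM131B, 4 of the 9 genes, in windows of 250 bases before to 50 bases after the start (RefSeq, GRCh38.p14). The stretches of AZGP1 and PPP1R14D that lie before every annotated start are shown, because they hold matches to pieces of the HNF4 recognition sequence. In the AZGP1 stretch, on the minus strand at chr7:99976158-99976281, the capitals mark 2 matches to the half-site AGTCCA, the second of them on the opposite strand.
AZGP1: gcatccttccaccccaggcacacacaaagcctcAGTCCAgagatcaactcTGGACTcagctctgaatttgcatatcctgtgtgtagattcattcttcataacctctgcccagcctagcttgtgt
In the PPP1R14D stretch, on the minus strand at chr15:40828710-40828958, the capitals mark a match to CAAAGGTCA on the opposite strand.
PPP1R14D: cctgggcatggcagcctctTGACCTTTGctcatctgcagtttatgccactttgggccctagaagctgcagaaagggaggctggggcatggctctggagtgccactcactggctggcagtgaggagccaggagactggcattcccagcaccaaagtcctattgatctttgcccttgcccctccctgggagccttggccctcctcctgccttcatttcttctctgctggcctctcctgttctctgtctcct
The full forms, a direct repeat of AGGTCA with 1 base between (DR1), CAAAGTCCA and CAAAGTTCA, searched on both strands, were found in 0 of the 4 genes and in 0.0228, 0.384 and 0.296 percent of all 35116 promoter windows. AGTCCA was found in AZGP1 and in 11.8 percent of all windows. AGGTCA was found in PPP1R14D and in 13.8 percent of all windows. CAAAGGTCA, which contains AGGTCA and was added to the search after the windows had been read, was found in PPP1R14D and in 0.407 percent of all windows. These matches describe letters in a short window and not sites of binding. The same windows of AZGP1 and PPP1R14D each held 1 CpG, against a median of 14 over all windows, that of RASGRP2 held 17, and the windows of FAM131B held 13 and 29.

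The 9 genes started from low or moderate levels and ended at low to moderate ones. Control means ran from 0.255 FPKM for PPP1R14D to 8.71 FPKM for MYRF, all below the median of 10.4 FPKM over the 14106 tested genes. Overexpression means ran from 2.9 FPKM for PPP1R14D to 22.2 FPKM for MYRF. Only MYRF, KLC4 and CAMK2N1 lay above the median of 10.6 FPKM over the tested genes in that group. In control, 4 of the 9 (AZGP1, RASGRP2, PPP1R14D and FAM131B) stayed under 1 FPKM in every library, PRAP1 straddled that level, and the other 4 were above it throughout. Genes entered the test if at least 3 of the 6 libraries reached 1 FPKM, so AZGP1, RASGRP2, PPP1R14D and FAM131B passed only through the group in which they were high. In all 9 genes the lowest overexpression library lay above the highest control library, a pattern seen in 13.8 percent of tested genes in that direction and in 10.1 percent in the other. All 9 were also called higher by limma at an adjusted p under 0.05, against 3.4 percent of tested genes called higher and 1.39 percent called lower. Since the genes were chosen for this, neither count is evidence about them.

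**Figure D1:**
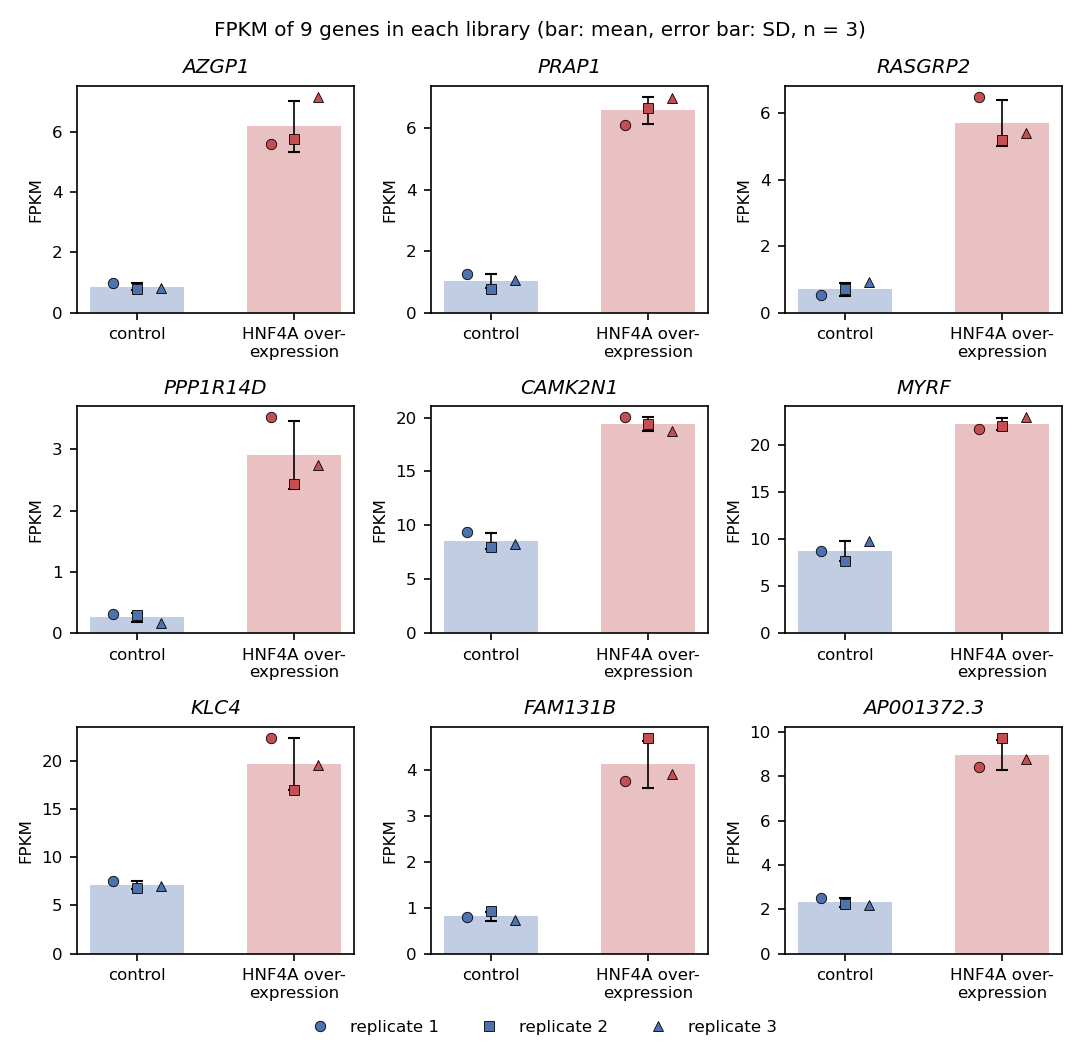
FPKM of each of the 9 genes (vertical axes, linear from 0) in 3 control and 3 HNF4A overexpression libraries. Points are libraries, bars means and error bars SD. In every panel the lowest overexpression library lies above the highest control library, by a ratio from 1.99 in CAMK2N1 to 8.0 in PPP1R14D.

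Log2 changes were computed on log2(FPKM + 1), a scale that understates the rise of genes near or under 1 FPKM. On that scale the 9 genes ranked between 4 (RASGRP2) and 70 (CAMK2N1) of 14106 tested genes, and 61 genes outside the group, HNF4A included, had a larger log2 change than CAMK2N1. By the plain ratio of mean FPKM the ranks ran from 5 for PPP1R14D to 135 for CAMK2N1. By that ratio MYRF and KLC4 ranked at 94 and 78, behind the other 6 genes, whose ranks ran from 5 to 41.

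**Figure D2:**
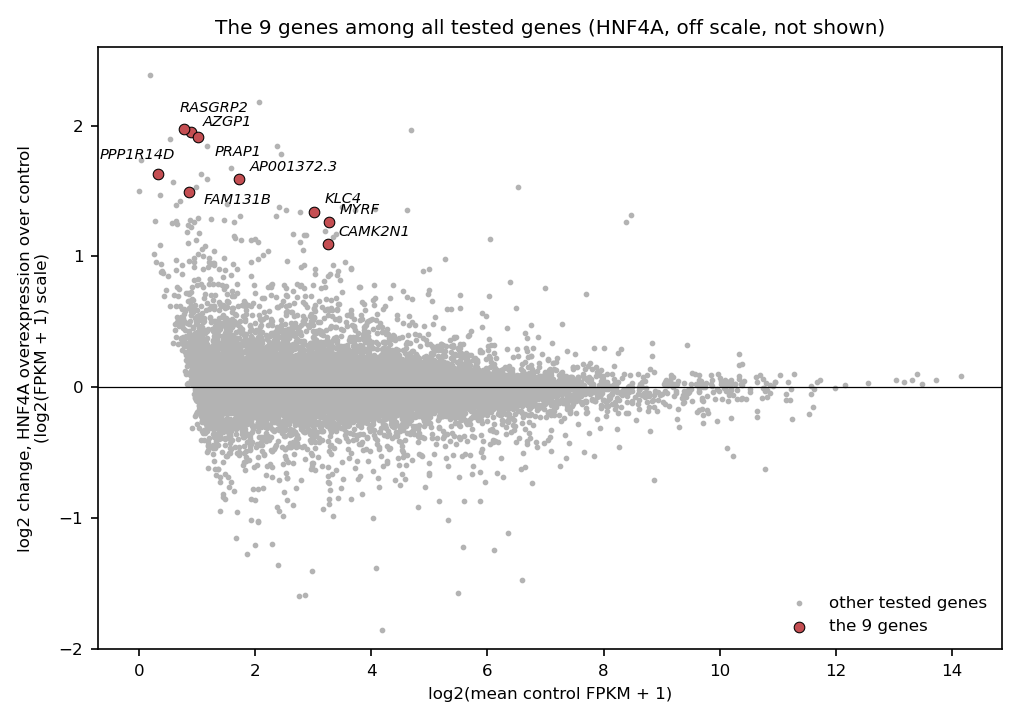
Log2 change between the groups (vertical axis) against the control level (horizontal axis, log2 of mean control FPKM plus 1) for the tested genes. Grey points are other genes and red points the 9 described here. The 5 genes with control means near or under 1 FPKM sit at the left edge with log2 changes of 1.49 to 1.98, and CAMK2N1, KLC4 and MYRF sit at higher levels with 1.10 to 1.34.

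Of the 2 secreted proteins, AZGP1 is zinc-alpha-2-glycoprotein, a soluble protein with a fold like that of MHC class I molecules, known for promoting lipid breakdown in adipose tissue. It is on chromosome 7 from 99966720 to 99976157, minus strand (GENCODE 29, GRCh38). AZGP1 was measured at 0.981, 0.769 and 0.817 FPKM in control replicates 1 to 3 and at 5.61, 5.77 and 7.17 FPKM in overexpression replicates 1 to 3. The means were 0.856 ± 0.111 and 6.18 ± 0.856 FPKM (SD, n = 3 each), a ratio of 7.23 and a log2 change of 1.95 with a standard error of 0.11. For AZGP1 overexpression replicate 3 was the highest library, while replicates 1 and 2 were close to each other.

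PRAP1 encodes a secreted proline-rich acidic protein of intestinal epithelium, described as a partner of the microsomal triglyceride transfer protein MTTP. It is on chromosome 10 from 133347146 to 133352683, plus strand. PRAP1 was at 1.26, 0.774 and 1.05 FPKM in control and at 6.11, 6.65 and 6.99 FPKM in overexpression (1.03 ± 0.242 and 6.58 ± 0.444 FPKM, SD, n = 3 each; ratio 6.41, log2 change 1.91, SE 0.11). The control libraries differed more among themselves, with a coefficient of variation of 23.6 percent, than the overexpression libraries, with 6.74 percent. The readthrough gene ZNF511-PRAP1 covers 55.3 percent of the exonic bases of PRAP1 on the same strand, and it was listed below 0.0001 FPKM in all 6 libraries. How the authors' tool divided fragments between PRAP1 and ZNF511-PRAP1 is not known, and the part of readthrough in the rise was not tested. The antisense gene AL360181.1, which overlaps PRAP1 but none of its exons, was listed at 11.8 FPKM in overexpression replicate 1 and at 0 in the other 5 libraries.

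Among the signalling genes, RASGRP2 encodes CalDAG-GEFI, a calcium- and diacylglycerol-regulated exchange factor for Rap1 that is needed for integrin activation in platelets. It is on chromosome 11 from 64726911 to 64745456, minus strand. RASGRP2 was at 0.517, 0.698 and 0.905 FPKM in control and at 6.50, 5.21 and 5.42 FPKM in overexpression. The means were 0.707 ± 0.194 and 5.71 ± 0.695 FPKM (SD, n = 3 each), a ratio of 8.08 and a log2 change of 1.98 with a standard error of 0.12. Overexpression replicate 1 was highest, as it was for HNF4A. RASGRP2 is known mainly from blood cells. Of 4 platelet markers PF4, GP9 and PPBP were at 0 in all 6 libraries, and ITGA2B was at 0.373, 0.422 and 0.479 FPKM in control and at 0.394, 0.198 and 0.609 FPKM in overexpression, so its groups overlapped.

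PPP1R14D encodes a protein phosphatase 1 inhibitor of gut and brain, which is switched on by protein kinase C. It is on chromosome 15 from 40815445 to 40828709, minus strand. PPP1R14D was at 0.305, 0.297 and 0.164 FPKM in control and at 3.52, 2.44 and 2.75 FPKM in overexpression (0.255 ± 0.0792 and 2.9 ± 0.558 FPKM, SD, n = 3 each). Its ratio of 11.4 was the largest of the 9, beside a log2 change of 1.63 (SE 0.13). With a pseudocount of 0.1 in place of 1 that change was 3.09, and such sizes depend on the constant added because the control level was under 1 FPKM. PPP1R14D also varied most within the overexpression group, with a coefficient of variation of 19.2 percent.

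CAMK2N1 encodes a small protein that inhibits calcium/calmodulin-dependent protein kinase II. It is on chromosome 1 from 20482391 to 20486220, minus strand. CAMK2N1 was at 9.41, 8.01 and 8.25 FPKM in control and at 20.0, 19.4 and 18.8 FPKM in overexpression. Its means of 8.56 ± 0.751 and 19.4 ± 0.635 FPKM (SD, n = 3 each) gave the smallest ratio of the 9, 2.27, with a log2 change of 1.10 (SE 0.07). The coefficients of variation were 8.77 and 3.28 percent, against medians of 7.26 and 7.38 percent over all tested genes.

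MYRF encodes a transcription factor that is made as a membrane protein of the endoplasmic reticulum, cuts itself free and enters the nucleus. In mouse oligodendrocytes it drives myelin genes. The gene is on chromosome 11 from 61752642 to 61788518, plus strand. MYRF was at 8.72, 7.65 and 9.77 FPKM in control and at 21.7, 22.0 and 22.9 FPKM in overexpression (8.71 ± 1.06 and 22.2 ± 0.634 FPKM, SD, n = 3 each; ratio 2.55, log2 change 1.26, SE 0.09). It reached the highest overexpression level of the 9 and had the smallest spread there, with a coefficient of variation of 2.86 percent. TMEM258, on the opposite strand, shares 3.75 percent of the exonic bases of MYRF and was at 168 ± 14.6 and 166 ± 9.25 FPKM (SD, n = 3 each; limma adjusted p = 0.939). Strandedness of the counting is not given in the sources used here, and the part of TMEM258 reads in the MYRF values was not tested.

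KLC4 encodes a light chain of kinesin-1, the motor subunit that binds cargo. It is on chromosome 6 from 43040777 to 43075099, plus strand. KLC4 was at 7.50, 6.78 and 7.04 FPKM in control and at 22.4, 17.0 and 19.5 FPKM in overexpression (7.10 ± 0.366 and 19.6 ± 2.69 FPKM, SD, n = 3 each; ratio 2.76, log2 change 1.34, SE 0.10). Its overexpression libraries ranked in the order of HNF4A, replicate 1 above 3 above 2. CUL7 and MRPL2 overlap KLC4 on the opposite strand and share 5.12 and 5.81 percent of its exonic bases. Neither passed the test, CUL7 at 3.8 ± 0.222 and 4.16 ± 0.709 FPKM (limma adjusted p = 0.756) and MRPL2 at 40.7 ± 0.785 and 46.1 ± 1.66 FPKM (limma adjusted p = 0.0959; SD, n = 3 each). The part of CUL7 and MRPL2 reads in the KLC4 values was not tested.

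FAM131B is on chromosome 7 from 143353400 to 143362770, minus strand. FAM131B was at 0.797, 0.921 and 0.723 FPKM in control and at 3.76, 4.70 and 3.91 FPKM in overexpression. The means were 0.814 ± 0.1003 and 4.12 ± 0.506 FPKM (SD, n = 3 each), a ratio of 5.07 and a log2 change of 1.49 with a standard error of 0.11. Here overexpression replicate 2, the library with the least HNF4A, was the highest.

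AP001372.3 is annotated as an antisense RNA gene with a single transcript, on chromosome 11 from 74455348 to 74456825, plus strand. It was at 2.52, 2.21 and 2.19 FPKM in control and at 8.42, 9.74 and 8.76 FPKM in overexpression (2.31 ± 0.187 and 8.97 ± 0.686 FPKM, SD, n = 3 each; ratio 3.89, log2 change 1.59, SE 0.09). All 609 exonic bases of AP001372.3 lie in the 3′ untranslated region of KCNE3, on the opposite strand. KCNE3 encodes a potassium channel subunit that pairs with KCNQ1 in intestinal epithelium. KCNE3 rose from 3.97, 4.17 and 4.84 FPKM in control to 14.9, 11.3 and 12.5 FPKM in overexpression (4.33 ± 0.458 and 12.9 ± 1.85 FPKM, SD, n = 3 each; log2 change 1.38, SE 0.11, limma adjusted p = 7.81e-04). It passed in all 6 fits that left out 1 library. KCNE3 contains the exons of AP001372.3, so neither result is independent of the choice of the 9 genes. The ratio of AP001372.3 to KCNE3 FPKM was 0.636, 0.531 and 0.451 in control and 0.564, 0.861 and 0.703 in overexpression, so the ranges of the groups overlapped. Whether the authors' counting used strand is not given in the sources used here. Reads of AP001372.3 and reads of the KCNE3 transcript therefore cannot be told apart, and the rise of AP001372.3 is not separate evidence of a noncoding RNA that changed.

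**Figure D3:**
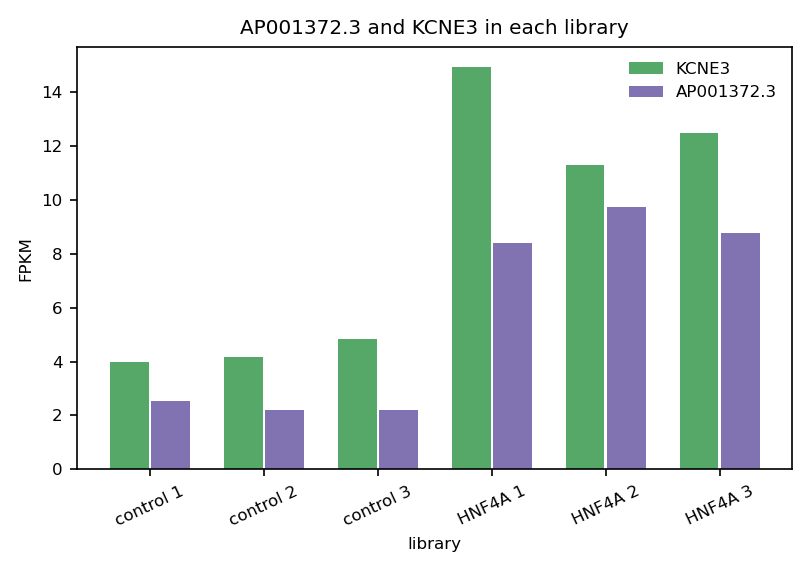
FPKM of KCNE3 and of AP001372.3 (vertical axis, linear from 0), which lies within the KCNE3 3′ untranslated region on the other strand, in each of the 6 libraries (horizontal axis). Both are higher in all 3 overexpression libraries, KCNE3 at 11.3 to 14.9 FPKM against 3.97 to 4.84, and AP001372.3 at 8.42 to 9.74 FPKM against 2.19 to 2.52.

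The 9 genes did not follow the HNF4A level in a common order within the overexpression group. HNF4A was highest in replicate 1 and lowest in replicate 2. RASGRP2, PPP1R14D and KLC4, 3 of the 9, ranked the libraries the same way. AZGP1, PRAP1 and MYRF were highest in replicate 3 and lowest in replicate 1, FAM131B and AP001372.3 were highest in replicate 2, and CAMK2N1 was highest in replicate 1 and lowest in replicate 3. With 3 libraries these orders are a description, and no test was made.

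Chromosomal neighbours were examined in the same fit. Up to 3 protein-coding genes on each side of each of the 9 genes gave 54 neighbours, of which 39 were expressed enough to be tested. KCNE3 and LRRC10B were the 2 that rose. By limma 0 fell, with 9 higher and 3 lower at an unadjusted p under 0.05, a level that 18.04 percent of all tested genes passed (10.8 percent higher and 7.29 percent lower). The calls are 5.13 percent higher, against 3.4 percent of all tested genes, and the median log2 change of the neighbours was 0.02, against 0.01 over all tested genes. KCNE3 is not independent of the choice, since it contains the exons of AP001372.3, and without it 1 of 38 neighbours rose, 2.63 percent. At that unadjusted level 8 of 38 were higher, 21.05 percent, and 3 lower, 7.89 percent, against 10.8 and 7.29 percent of all tested genes. LRRC10B, a leucine-rich repeat gene 241624 bases from MYRF, rose by a log2 change of 0.75 (SE 0.12, limma adjusted p = 0.0124). LRRC10B stayed under 1 FPKM in every control library, so it passed the filter only through the overexpression group. It lost its call without overexpression replicate 1 (limma adjusted p = 0.0522), which left KCNE3 as the 1 neighbour called. With no filter on low values LRRC10B did not pass either (limma adjusted p = 0.0736). The nearer neighbours of MYRF, DAGLA, FEN1 and FADS2, had log2 changes of 0.15, 0.01 and 0.03 (limma adjusted p of 0.544, 0.930 and 0.874). ZFYVE19, 361 bases from PPP1R14D, had a log2 change of 0.23 (limma adjusted p = 0.104), and SF1, near RASGRP2, one of -0.05 (0.607). ZYX, CDA and PAOX had log2 changes of 0.24, 0.28 and 0.42 (limma adjusted p of 0.0531, 0.0568 and 0.0655). UBXN10 had one of -0.34 (0.0521). ZYX, CDA, PAOX and UBXN10 passed under some alternatives only.

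**Figure D4:**
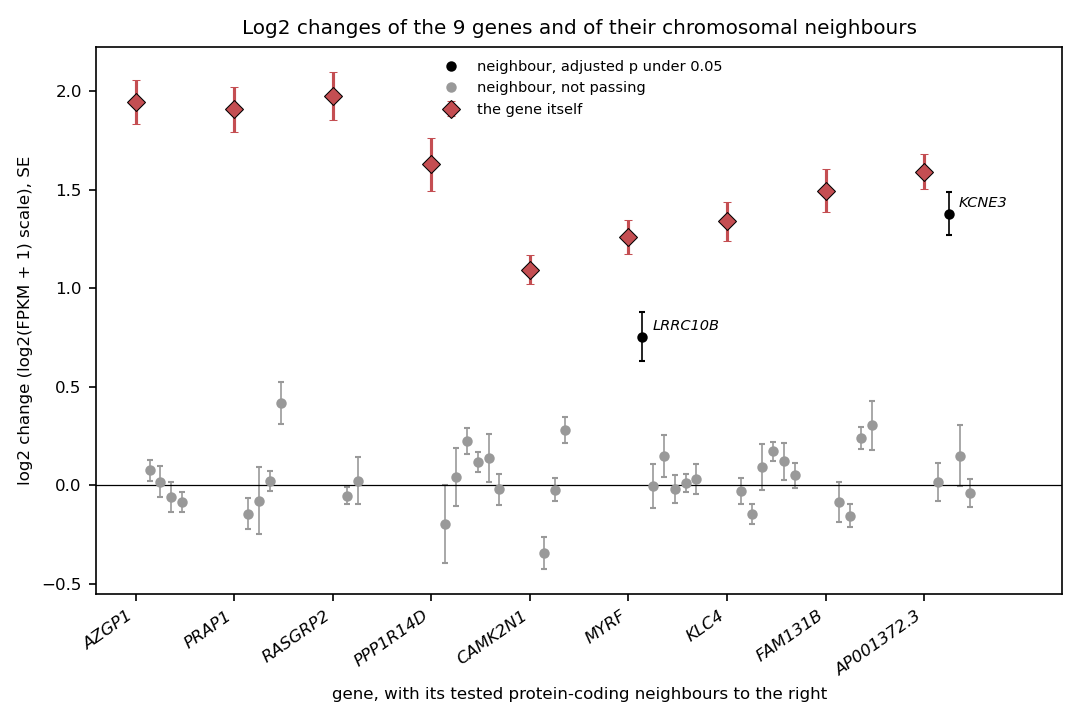
Log2 change with its standard error (vertical axis) of each of the 9 genes (red diamonds) and, to its right, of its tested protein-coding neighbours (circles, black where the limma adjusted p was under 0.05). Of 39 neighbours KCNE3, at 1.38, and LRRC10B, at 0.75, passed, and the others lie between -0.34 and 0.42.

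Relatives and known partners of the 9 genes were tested in the same fit, from lists made by function. The lists held 163 genes and 112 could be tested. Among them 7 rose and PLTP was the 1 that fell. The shares were 6.25 percent higher, against 3.4 percent of all tested genes, and 0.893 percent lower, against 1.39 percent, and the median log2 change was 0.02, against 0.01 over all tested genes. Without any 1 of the control libraries, or without overexpression replicate 3, 3 partners passed as higher, and without overexpression replicate 2 there were 4.

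**Figure D5:**
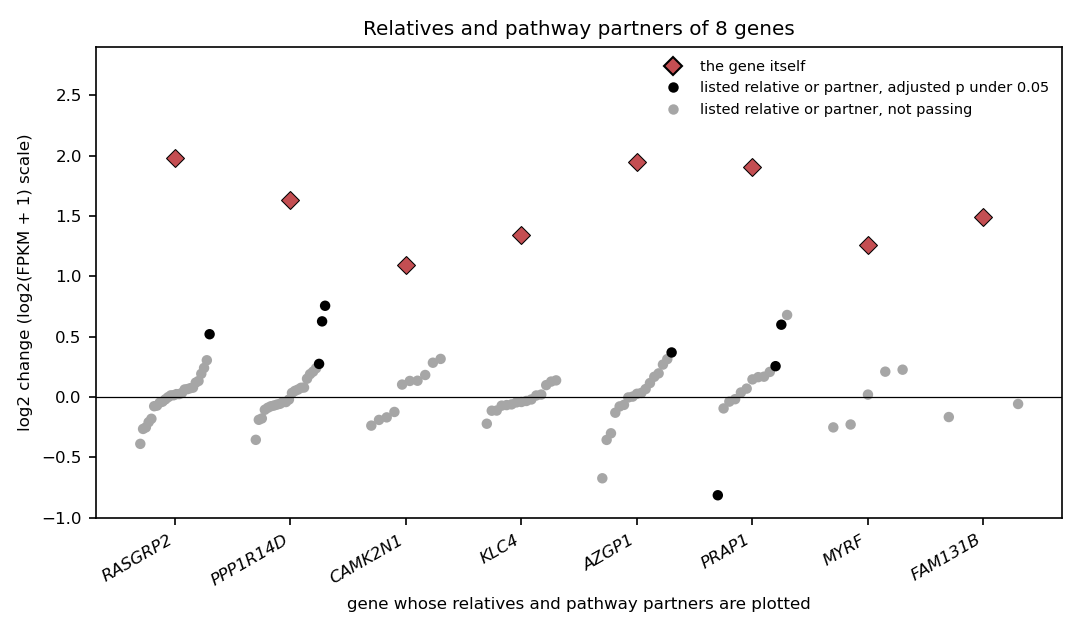
Log2 change (vertical axis) of the relatives and pathway partners of 8 of the 9 genes, by list (horizontal axis). Each circle is a tested gene, black where the limma adjusted p was under 0.05, and red diamonds are the genes themselves. Partners lie between -0.81 (PLTP) and 0.76 (MYH14), below the diamond of every list.

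In the myosin phosphatase list of PPP1R14D, 3 of 24 tested genes rose. MYH14, a nonmuscle myosin heavy chain, rose from 6.20 ± 0.418 to 11.2 ± 1.07 FPKM (SD, n = 3 each; log2 change 0.76, limma adjusted p = 0.00267) and passed in all 6 fits that left out 1 library. MYLK, the myosin light chain kinase gene, rose from 0.958 ± 0.118 to 2.04 ± 0.394 FPKM (limma adjusted p = 0.0323), and PPP1R2, another phosphatase 1 inhibitor gene, from 101 ± 5.05 to 122 ± 3.66 FPKM (limma adjusted p = 0.0241). Among the fits that left out 1 library, MYLK passed only without overexpression replicate 1 (adjusted p = 0.0252) and had adjusted p-values up to 0.109 in the others. PPP1R2 passed only without overexpression replicate 2 (0.0488), with values up to 0.0802 in the others. MYLK was at 0.839, 1.07 and 0.960 FPKM in control, so it passed the filter only through the overexpression group. With no filter on low values MYLK and PPP1R2 did not pass (limma adjusted p of 0.143 and 0.0916). The relatives PPP1R14B and PPP1R14C did not pass, at 166 ± 4.95 and 170.5 ± 16.3 FPKM (limma adjusted p = 0.857) and at 6.43 ± 0.639 and 6.04 ± 0.502 FPKM (0.752). PPP1R14A was at 0 in all 6 libraries.

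In the Rap list of RASGRP2, SIPA1L3 was the 1 of 26 tested genes that rose. SIPA1L3, a relative of the Rap GTPase-activating protein SIPA1, went from 9.37 ± 0.878 to 13.8 ± 0.525 FPKM (SD, n = 3 each; log2 change 0.52, limma adjusted p = 0.00838). The gene passed in all 6 fits that left out 1 library, but not with no filter on low values (limma adjusted p = 0.0550). RAP1A and RAP1B, the GTPases on which RASGRP2 acts, were at 29.2 ± 2.34 and 29.6 ± 1.49 FPKM (limma adjusted p = 0.909) and at 62.5 ± 1.91 and 59.5 ± 3.09 FPKM (0.564). The relative RASGRP3 was at 8.46 ± 1.53 and 6.97 ± 1.49 FPKM (0.487). RASGRP1 was below the filter, at 0.846 ± 0.134 and 0.523 ± 0.0428 FPKM.

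Of 10 tested genes of the calcium/calmodulin kinase list of CAMK2N1, 0 passed by limma, with 3 higher and 2 lower at an unadjusted p under 0.05, against 10.8 and 7.29 percent of all tested genes. Its close relative CAMK2N2 was at 5.01 ± 0.367 and 5.60 ± 0.502 FPKM (SD, n = 3 each; limma adjusted p = 0.504). The kinase subunits CAMK2D and CAMK2G were at 3.06 ± 0.42 and 4.05 ± 0.46 FPKM (0.176) and at 7.59 ± 0.685 and 8.43 ± 0.851 FPKM (0.540). CALM2, a calmodulin gene and the most abundant of the list, was at 623 ± 30.2 and 554 ± 28.6 FPKM (0.157). In the kinesin-1 list of KLC4, 0 of 15 genes passed by limma, with 0 higher and 1 lower at that unadjusted level. The other light chains KLC1, KLC2 and KLC3 had log2 changes of 0.02, 0.01 and -0.22 (limma adjusted p of 0.917, 0.938 and 0.239), and the heavy chain gene KIF5B one of -0.03 (0.815).

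Of 17 tested genes of the AZGP1 list, LIPE, the hormone-sensitive lipase gene, rose from 5.56 ± 0.2501 to 7.48 ± 0.33 FPKM (SD, n = 3 each; log2 change 0.37, limma adjusted p = 0.0289). LIPE did not pass in any of the 6 fits that left out 1 library, with adjusted p-values from 0.0644 to 0.101. B2M, the light chain of MHC class I molecules, was at 396 ± 2.87 and 404 ± 23.2 FPKM (limma adjusted p = 0.850), and PIP, known to bind AZGP1, was at 0 in all 6 libraries. In the lipoprotein assembly list of PRAP1, 2 of 13 tested genes rose and 1 fell. ACSL5, an acyl-CoA synthetase gene, rose from 8.52 ± 0.727 to 13.4 ± 0.969 FPKM (log2 change 0.60, limma adjusted p = 0.00601). PLTP, the phospholipid transfer protein gene, fell from 13.4 ± 0.497 to 7.21 ± 0.787 FPKM (log2 change -0.81, limma adjusted p = 0.00182). Both passed in all 6 fits that left out 1 library, while SCARB1, a lipoprotein receptor gene (42.7 ± 1.78 to 51.2 ± 2.45 FPKM, limma adjusted p = 0.0412), passed in 0 of them (0.0694 to 0.130). MTTP did not exceed 0.0711 FPKM, and 10 of the 11 listed genes under the filter stayed below 0.1 FPKM in every library.

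Genes that MYRF serves in oligodendrocytes were mostly not expressed. Of 18 listed relatives, regulators and myelin genes 5 were tested and 0 passed by limma, with 2 higher and 0 lower at an unadjusted p under 0.05, against 10.8 and 7.29 percent of all tested genes. MBP was at 4.17 ± 0.0951 and 4.24 ± 0.231 FPKM (SD, n = 3 each; limma adjusted p = 0.935), and MOG was at 0 in all 6 libraries. TMEM98, a membrane protein that restrains MYRF self-cleavage, was at 25.6 ± 1.004 and 29.7 ± 0.458 FPKM (0.0635), and CNP, a myelin enzyme gene, at 54.1 ± 0.988 and 63.6 ± 3.68 FPKM (0.0557). The relatives of FAM131B, FAM131A and FAM131C, had log2 changes of -0.06 and -0.17 (limma adjusted p of 0.812 and 0.544, with 0 at an unadjusted p under 0.05).

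Likeness of expression was measured as the root mean square difference over the 6 libraries of log2(FPKM + 1), after subtracting the control mean, against 12268 other tested genes. USH1C, the harmonin gene, lay nearest to AZGP1 (0.138), PRAP1 (0.128) and RASGRP2 (0.249). The measure leaves out the level: the mean of USH1C went from 4.19 to 17.6 FPKM, and that of RASGRP2 from 0.707 to 5.71 FPKM. It reuses the comparison on which the 9 genes were chosen, so nearness here describes mainly rises of like size. The nearest gene was UST for PPP1R14D (0.157), MAN1A1 for MYRF (0.125), PLPP3 for KLC4 (0.0732), FSTL4 for FAM131B (0.176) and SULT2B1 for AP001372.3 (0.187). With a pseudocount of 0.1, the nearest gene was another for each of the 9, so these names hold for the scale with 1 added only.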

How the data were processed

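Paired-end RNA-seq was run on 6 libraries of SW480 cells, grouped by genotype label and title. Titles give replicate numbers 1 to 3. The authors deposited 1 table of FPKM values per gene symbol beside their group means, and no per-sample column was left unused. The submitters' processing notes list Cufflinks, TopHat and TopHat2, Bowtie and Bowtie2, FastQC, and the build hg38. Not given in the sources used here are versions, settings, annotation and strandedness. Of the 59332 distinct names 215 stood on several rows, of which the row with the highest mean was used. Between 360 and 386 values per library were under 0.0001 FPKM without being 0, too low for whole fragments. No depth or counting interval was computed. FPKM depends on the assumed transcript length, so isoform shifts can alter it.

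The scale was log2(FPKM + 1), and limma 3.58.1 under R 4.3.3 was fitted with group as the only term (eBayes with a trend). Genes with at least 1 FPKM in at least 3 libraries were tested, 14106 in all, with Benjamini-Hochberg adjustment over all of them and a threshold of 0.05. The fit was checked on simulated data. SDs are in FPKM, over 3 libraries. P-values measure the spread between samples of 1 line, and where a group derives from a single transduced population, effects of HNF4A and of that population cannot be told apart.

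The 9 genes and the lists were chosen with earlier results of these data known. Named beside the 9 were HNF4A, up to 4 passing genes of each list (or the most abundant where 0 passed), passing neighbours, genes that overlap a member, and the nearest gene by likeness. The nearest gene to CAMK2N1 is not reported here. Relatives and other genes mentioned without passing, and the neighbours nearest to a member, were picked after their values were seen. Neighbours were taken from GENCODE 29 and promoter windows from RefSeq, both on GRCh38. Alternatives were another pseudocount, 2 other filters, 2 scalings, no trend, summed rows, a replicate block and leaving out each library.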

Additional observations from a re-analysis of the deposited data

How the results depend on the processing

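All 9 genes kept their direction under each alternative that gave a value. All 9 stayed past the threshold except with a filter of 1 FPKM in all 6 libraries, under which 4 were tested and 4 passed. The genes were chosen for consistent rises in these same libraries, so this outcome is not support for them. Fits that left out 1 library kept the genes that had passed the filter with all 6 libraries. Without an overexpression library, AZGP1, RASGRP2, PPP1R14D and FAM131B reached 1 FPKM in too few libraries to pass that filter anew. With a pseudocount of 0.1 the log2 changes were larger, 2.71 for AZGP1, 2.59 for PRAP1, 2.87 for RASGRP2, 2.21 for FAM131B and 1.91 for AP001372.3. With no filter on low values there were 201 higher and 49 lower genes, against 480 and 196, with 2 partners and 1 neighbour higher. More genes share the adjustment there by construction. Leaving out 1 library at a time left 274 to 313 higher and 87 to 161 lower genes, 3 to 5 partners higher and 1 to 2 neighbours higher.

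With the replicate block, 638 genes passed as higher and 399 as lower, 12 partners as higher and 4 as lower, 5 neighbours as higher and 1 as lower. Same-numbered libraries had correlated deviations of 0.139, 0.0914 and 0.15, each library correlating best with its own number, but the labels do not say that the numbers pair cultures. The neighbour that passed as lower, 1 with quantile normalisation, 1 with median ratio scaling, 1 without the trend and 1 with the block, was UBXN10 near CAMK2N1 (limma adjusted p = 0.0521 as reported and 0.0274 with quantile normalisation, between 0.0274 and 0.162 over the alternatives). The cause was not tested.

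Of the 4 genes with promoter windows, 0 held a full-length motif, 2 held a half-site and 1 held the added CAAAGGTCA. With the other pseudocount 0 of the 9 nearest genes were the same. Over 17 named partner, neighbour and overlapping genes, 236 values under alternatives gave 202 on the same side of the threshold, 32 lost calls, 2 gained calls and 0 reversals. For genes under 1 FPKM in control, the unknown depth limits the precision of the ratios.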
